A study of Mus musculus with 16 samples.

Results

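The 6 actin genes of the mouse were examined in ventricle RNA from hearts under pressure overload and from unstressed hearts, each with and without the kinase inhibitor THZ1. They were taken by gene symbol from a table of normalized read counts for 22372 genes, and all 6 were found: Acta1, Actc1, Acta2, Actg2, Actb and Actg1. The animals were male C57BL/6J mice, 10 to 12 weeks old when the experiment began, and each of the 4 groups had 4 libraries from separate mice. Sham-Veh mice had sham surgery and vehicle. Sham-THZ1 mice had sham surgery and THZ1, a covalent inhibitor of the transcriptional kinases CDK7, CDK12 and CDK13. TAC-Veh and TAC-THZ1 mice had transverse aortic constriction (TAC), a suture around the aortic arch that makes the left ventricle pump against a raised load. THZ1 was injected into the peritoneum at 10 mg/kg, 2 doses daily, beginning on day 1 after the operation and ending on day 60. Sham surgery opened the chest but placed no suture, and each library came from a piece of ventricle, so that every cell type of the tissue contributed RNA.

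Actin is the protein of the thin filament in muscle and of the cytoskeleton in all cells, and in mammals each of its forms is made from a gene of its own. Actc1 encodes cardiac alpha actin, the main sarcomeric actin of the adult heart, and Acta1 encodes skeletal alpha actin, which fills the thin filaments of skeletal muscle and is also made in the fetal and newborn heart. Re-expression of Acta1 in adult ventricle is a classical marker of hypertrophic stress, alongside Myh7 and the natriuretic peptides. Acta2 and Actg2 encode the alpha and gamma actins of vascular and visceral smooth muscle, and Acta2 also marks myofibroblasts. Actb and Actg1 encode the beta and gamma actins of the cytoskeleton.

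The genes lie on 6 different chromosomes, given here on NCBIM37 (mm9), and all are read from the minus strand. Acta1 is at chr8:126415669-126418651, Actc1 at chr2:113873018-113879284, Acta2 at chr19:34315580-34329826, Actg2 at chr6:83462899-83486259, Actb at chr5:143664794-143668433 and Actg1 at chr11:120207004-120209856. Acta1 and Actc1 each overlap an annotated gene on the other strand, from which strand-specific counting separates them, and Actg1 overlaps a miRNA gene on its own strand.

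Actin coding sequences are so alike that a short read can match more than 1 of them, and the reads here were 40 bases long. The coding sequences of Acta1 and Actc1 were 86.2% identical, with 157 differing positions of 1134. Their first 90 coding bases are shown from the GENCODE transcripts because the count of each gene rests on such differences, and the 14 bases that differ are in capitals.
Acta1: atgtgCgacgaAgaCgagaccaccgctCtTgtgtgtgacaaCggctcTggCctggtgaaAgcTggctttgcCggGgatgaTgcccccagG
Actc1: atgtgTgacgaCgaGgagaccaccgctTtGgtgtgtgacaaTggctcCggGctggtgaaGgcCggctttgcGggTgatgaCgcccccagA
The longest coding stretch that both genes share runs from coding base 964 to 992 and has 29 bases, shorter than a read:
Acta1 and Actc1: ctggctcccagcaccatgaagatcaagat
No 40-base window of the Actc1 transcript occurred elsewhere in the genome, and for Acta1 the share was 2.99%, of which 39 windows occurred in Actb. The share was 0.976% for Acta2 and 0% for Actg2. It was 26.2% for Actb and 97.2% for Actg1, of whose 1913 windows only 53 occurred nowhere else. The level of Actg1 is therefore uncertain, and that of Actb in part, where the counting left out or split reads with more than 1 match.

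Actin genes are textbook targets of serum response factor (SRF), which binds a short element called the CArG box, made of CC, a run of A or T, and GG. Of the 6 genes, 4 had a promoter sequence in the RefSeq table (GRCm38.p6, 250 bases before to 50 after the start), and 3 of these held a full CArG box. For Actg2 and Actb no promoter sequence was given, so they were not searched. Among all 27025 genes with a promoter window 1.81% held one, both strands being read. The 40 bases around each box are shown to place the boxes of the sarcomeric and cytoskeletal genes side by side, 5′ to 3′ on the gene's strand, with the box in capitals.
Acta1, chr8:123894824-123894863, minus strand: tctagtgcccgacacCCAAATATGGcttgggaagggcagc
Actc1, chr2:114052898-114052937, minus strand: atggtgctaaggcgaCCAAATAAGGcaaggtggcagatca
Actg1, chr11:120348561-120348600, minus strand: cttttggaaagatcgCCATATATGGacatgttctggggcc
The boxes began 73, 47 and 90 bases before the start of Acta1, Actc1 and Actg1. The Acta2 window held no full box and 2 with 1 substituted centre base. Counting full boxes and such looser matches together, the windows held 3 in Acta1, 4 in Actc1, 2 in Acta2 and 1 in Actg1. Of all genes with a window 11.3% held at least 1 of either kind. The part of these boxes in the levels that follow was not tested.

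The libraries held 21431703 to 35812869 reads in protein-coding genes, of which mitochondrial genes took 33.2% to 44.7%. Ventricular cardiomyocyte markers were abundant in every library (8 of 8 tested), and the skeletal muscle markers Myh1, Myh4, Actn3, Pvalb and Mybpc1 stayed at or under 6.37 normalized counts. Of 5 atrial markers, Myl7, Sln and Bmp10 stayed at or under 6.44, Myl4 differed by 0.43 between TAC-Veh and Sham-Veh without passing (limma adjusted p = 0.142), and Dkk3 rose by 3.67 with constriction and fell by 1.87 with THZ1 in constricted hearts (limma adjusted p = 2.06e-07 and 0.000311). The summed level of the 5 was 86 to 105 in Sham-Veh, 91 to 107 in Sham-THZ1, 532 to 1400 in TAC-Veh and 169 to 346 in TAC-THZ1, most of it Dkk3 in the constricted hearts, and its part in the results was not tested. Of 12 skeletal muscle markers 7 were tested, and in TAC-Veh against Sham-Veh 2 were higher (Tnnt3, Mybpc2) and 2 lower (Tnni2, Atp2a1). In that comparison 21.4% of all genes were called higher and 23.6% lower. The summed level of all 12 ranged over the libraries from 647 to 885 in Sham-Veh, 677 to 747 in Sham-THZ1, 757 to 1272 in TAC-Veh and 722 to 1438 in TAC-THZ1. Most of it was Mybpc2, with means of 493 of 744 in Sham-Veh and 871 of 1067 in TAC-Veh. In these bulk samples fewer cells of a type and less RNA per cell cannot be told apart.

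Acta1 was the member that changed. Its normalized counts were 5549, 2903, 3931 and 4262 in the Sham-Veh libraries and 60565, 92949, 115230 and 77852 in the TAC-Veh libraries, so that the lowest constricted heart stood above every sham heart. The log2 fold change was 4.38 ± 0.23 (SE; 95% interval 3.89 to 4.87), about 20.8-fold, with limma's adjusted p = 1.53e-08. This was the smallest p of the 13331 genes tested and the 24th largest rise. In the list of most expressed genes Acta1 moved from place 616 in Sham-Veh to place 25 in TAC-Veh. Of the 6 actin genes Acta1 alone was called (limma adjusted p below 0.05), where 45% of all genes tested were called in this comparison.

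**Figure D1:**
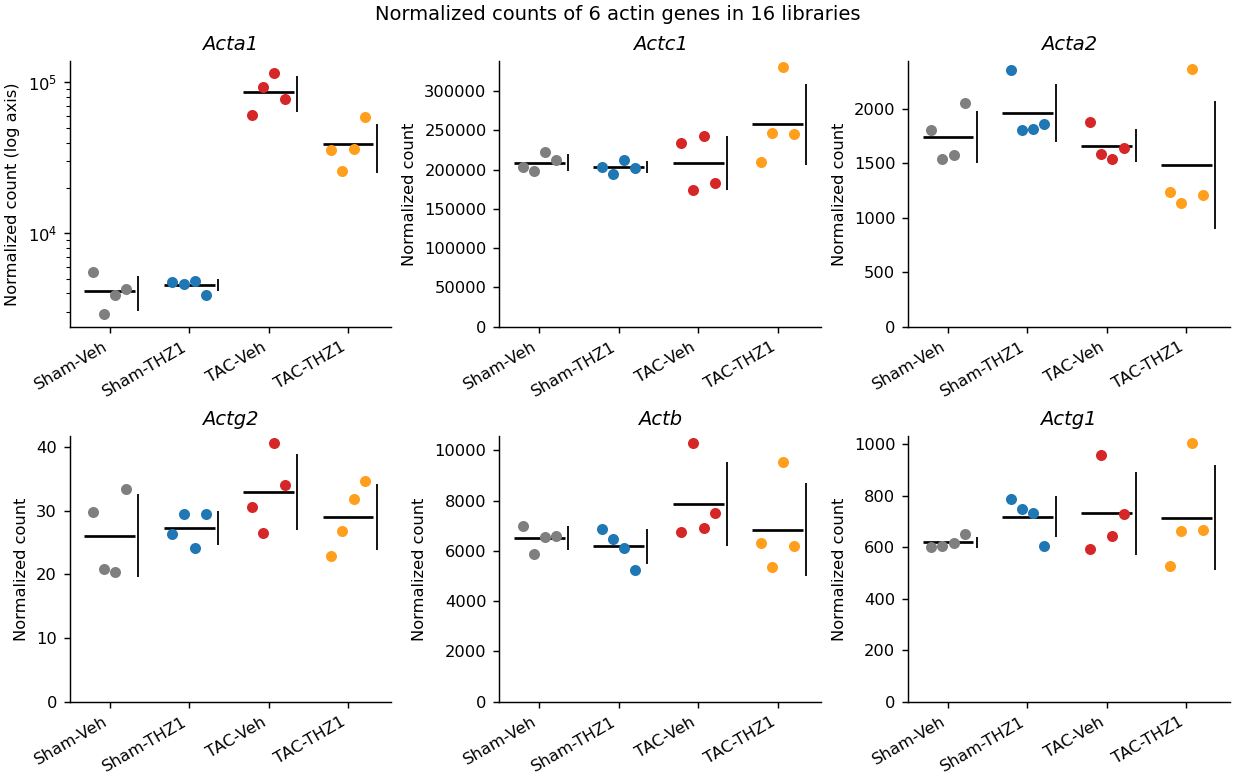
Normalized count of each actin gene (y axis, logarithmic for Acta1 and linear from 0 for the others) in the 16 libraries, in order of replicate within the 4 groups on the x axis; horizontal lines are group means and vertical lines ± 1 SD (n = 4). Acta1 lies between 2903 and 5549 in sham hearts and between 25802 and 115230 in constricted hearts, while the groups of the other 5 genes overlap.

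THZ1 lowered Acta1 in constricted hearts and left it well above sham. In TAC-THZ1 the counts were 35837, 25802, 36006 and 59180, all under the lowest TAC-Veh library, although the highest of them, 59180, came close to 60565. Acta1 fell by 1.17 ± 0.23 on the log2 scale against TAC-Veh (limma adjusted p = 0.00172), to 45.2% of the TAC-Veh mean. It was the only member called there, against 29.4% of all genes. Against Sham-THZ1, whose libraries held 4797, 4651, 4875 and 3925, it was still higher by 3.04 ± 0.23 (8.24-fold; limma adjusted p = 4.46e-06), the 7th largest rise of 13331 genes. In that comparison 24.2% of genes were called and Acta1 was again the only actin.

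THZ1 gave no detectable change of Acta1 in unstressed hearts. The Sham-THZ1 mean was 4562 ± 435 (SD, n = 4) and the Sham-Veh mean 4161 ± 1091, a log2 difference of 0.17 with a 95% interval of -0.32 to 0.65 (limma adjusted p = 0.96). The interval leaves out a fall as large as that in constricted hearts. The difference between the drug's effects in constricted and sham hearts was tested as an interaction, and it was -1.34 ± 0.33 on the log2 scale (limma adjusted p = 0.0195), where 10% of genes were called, 4.4% with a positive and 5.62% with a negative difference. None of the 6 actins was called in Sham-THZ1 against Sham-Veh. In that comparison limma called 9 genes, or 0.0675% (0.0225% higher and 0.045% lower), with 917 at an unadjusted p under 0.05. Of the other fits edgeR called 10 and DESeq2 33. With the sham groups alone limma called 465, and with array weights 513, and no actin was called in either.

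**Figure D2:**
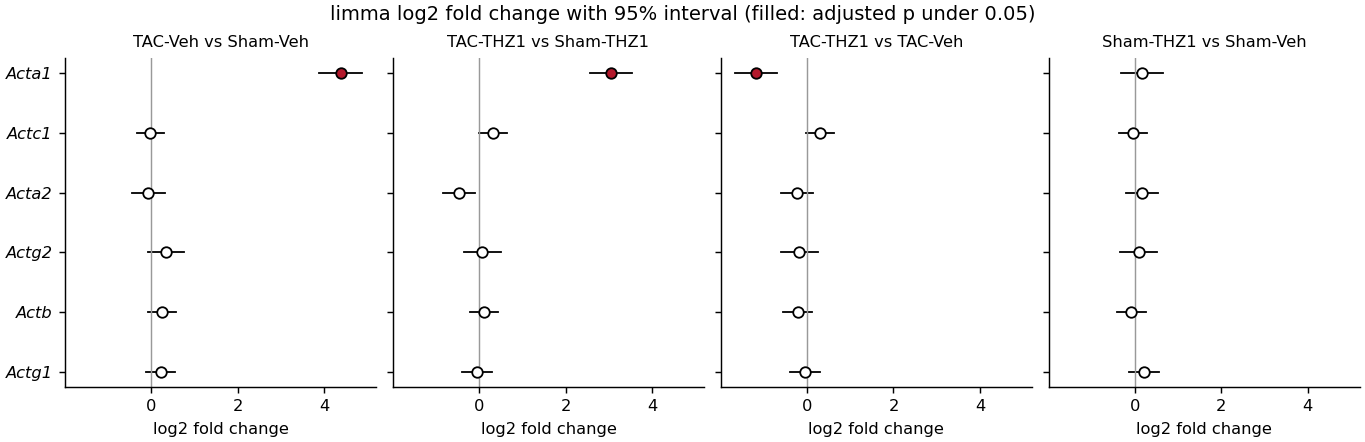
limma log2 fold change (x axis) of the 6 actin genes (y axis) in 4 comparisons, with 95% intervals; filled points have an adjusted p under 0.05. The filled points are those of Acta1, at 4.38 and 3.04 for constriction without and with THZ1 and at -1.17 for THZ1 in constricted hearts.

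Actc1 was by far the most abundant actin in every group, and its mean differed little between TAC-Veh and Sham-Veh. Its counts were 203134, 197797, 222813 and 212548 in Sham-Veh and 234452, 174270, 242476 and 183204 in TAC-Veh, and the groups overlapped. The means were 209073 ± 11004 and 208600 ± 34830, and the log2 difference was -0.02 with a 95% interval of -0.33 to 0.30 (limma adjusted p = 0.939), its sign differing between scalings. The 2 lowest TAC-Veh libraries, replicates 2 and 4, also had the smallest mitochondrial shares of all 16, 33.2% and 34.5%; the part of that share in the Actc1 spread was not tested.

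In TAC-THZ1 the Actc1 counts were 209101, 246181, 330516 and 245032, the last 3 of them above every library of the other groups. The mean there was 257707 ± 51501 against 203149 ± 7246 in Sham-THZ1, a log2 difference of 0.32 (95% interval 0.01 to 0.64) whose adjusted p of 0.124 with limma missed the threshold. It passed with DESeq2 on recovered reads (adjusted p = 0.0308) and with limma's array weights, and without TAC-THZ1 replicate 3, the highest library, the difference was 0.20 (limma adjusted p = 0.333). Against TAC-Veh the difference was 0.30 (limma adjusted p = 0.143). In TAC-THZ1 against TAC-Veh 7 of the 8 ventricular cardiomyocyte markers were higher, between 0.42 for Ryr2, the calcium release channel, and 0.68 for Myl2, the ventricular regulatory light chain, where 15.1% of all genes were called higher. In TAC-Veh against Sham-Veh 5 of the 8 were lower, where 23.6% of all genes were. Acta1 thus moved against the cardiomyocyte markers in both comparisons, and the part of tissue composition in the result was not tested.

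The ratio of Acta1 to Actc1 within a library does not depend on how that library was scaled. Per exon length there were 0.0306, 0.0164, 0.0197 and 0.0224 Acta1 transcripts for each Actc1 transcript in the Sham-Veh libraries and 0.289, 0.597, 0.532 and 0.475 in TAC-Veh. The means were 0.0223 ± 0.00604 and 0.473 ± 0.132 (SD, n = 4). The log2 ratio rose by 4.40, a 21.1-fold rise with no overlap (exact two-sided permutation test, p = 0.0286, the smallest that 4 against 4 can give; 0.0381 after Benjamini-Hochberg adjustment over the 4 pairs of groups).

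With THZ1 the ratio in constricted hearts was 0.192, 0.117, 0.122 and 0.27, with a mean of 0.175 ± 0.0719. It fell by 1.47 on the log2 scale against TAC-Veh, a 2.77-fold fall, and it was higher by 2.72 than in Sham-THZ1 (exact permutation p = 0.0286 and adjusted p = 0.0381 for each). The gap between the groups was narrow: TAC-THZ1 replicate 4, at 0.27, lay just under TAC-Veh replicate 1, at 0.289. In Sham-THZ1 the ratios were 0.0263, 0.0268, 0.0257 and 0.0217, and the difference from Sham-Veh of 0.21 did not pass (exact permutation p = 0.371). The drug's effect on the ratio differed between constricted and sham hearts by -1.68 (p = 0.00857, exact permutation of the drug labels within each kind of surgery).

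As a share of the reads of both genes, which depth measures closely, Acta1 took 1.45% to 2.66% in the Sham-Veh libraries and 20.5% to 34.8% in TAC-Veh. In TAC-Veh replicate 1, the lowest of its group, the share was 20.5% with an exact 95% binomial interval of 20.4% to 20.7%, and in TAC-THZ1 replicate 4 it was 19.5% (19.3% to 19.6%). These intervals cover counting error only, and the spread between mice was many times wider.

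**Figure D3:**
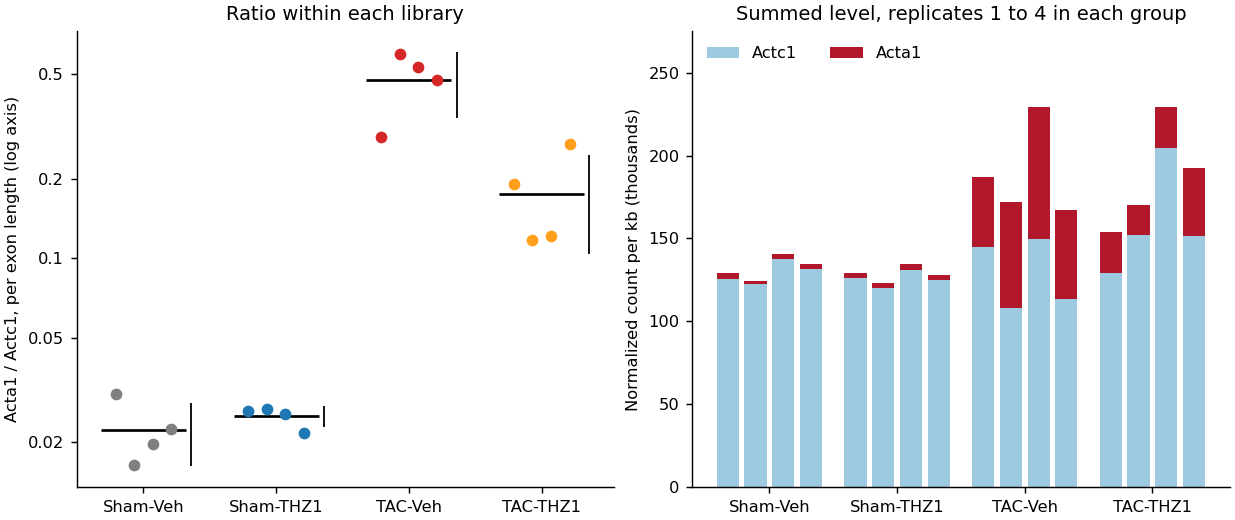
Left, Acta1 divided by Actc1 per exon length (logarithmic y axis) in each library, with group means and ± 1 SD (n = 4). Right, stacked bars of the normalized count per kb of exon for Actc1 and Acta1 in replicates 1 to 4 of each group. The ratio lies between 0.0164 and 0.0306 in sham hearts, and the bars of both constricted groups, from 154018 upwards, are above those of the sham groups, with a larger Acta1 part in TAC-Veh.

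The summed level of both sarcomeric actins had higher means in constricted hearts, a difference that missed the adjusted threshold, and near-equal means with and without the drug. Per kb of exon it was 129384, 124255, 140427 and 134312 normalized counts in Sham-Veh and 186787, 171987, 229550 and 167068 in TAC-Veh, with no overlap. The log2 difference was 0.51 (exact permutation p = 0.0286, the smallest that 4 against 4 can give, and 0.0571 adjusted over the 4 pairs). It did not pass, but a larger rise could not have passed either. Drug against vehicle gave exact permutation p = 0.914 in constricted and 0.4 in sham hearts, and beside these the smallest possible p adjusts to 0.0571. In TAC-THZ1 the sums were 154018, 169995, 229175 and 192368, against 129357, 123305, 134387 and 127794 in Sham-THZ1, a difference of 0.52 with the same p-values. Between TAC-THZ1 and TAC-Veh the difference was -0.02, with means of 186389 ± 32573 and 188848 ± 28399 (exact permutation p = 0.914).

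The makeup of that sum differed. In TAC-Veh the mean of Acta1 was 57045 per kb above Sham-Veh while that of Actc1 was 292 below it. In TAC-THZ1 Acta1 was 23959 and Actc1 33719 per kb above Sham-THZ1, although the difference in Actc1 did not pass its test. Of the level of all 6 actins per length, Acta1 made up 2.12% ± 0.557 in vehicle-treated sham hearts and 2.38% ± 0.211 with THZ1, and 31.0% ± 6.32 in TAC-Veh hearts against 14.4% ± 5.01 with the drug. The share of Actc1 was 95.2% ± 0.729 and 94.8% ± 0.481 for sham surgery and 66.8% ± 6.52 and 83.7% ± 4.90 for constriction, without and with THZ1.

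Per exon length the order of the genes was Actc1, Acta1, Actb, Acta2, Actg1 and Actg2 in all 4 groups. The order of Acta1 and Actb in sham hearts depended on the length used. With length counted by 40-base windows found in no other transcript, the mean share of Actb was above that of Acta1 in Sham-Veh (2.75% and 1.97%). The same held in Sham-THZ1 (2.68% and 2.21%). Acta1 and Actb were neighbours that overlapped in Sham-Veh, at 2878 ± 755 and 2428 ± 175 normalized counts per kb; in TAC-Veh Acta1 stood 20.4-fold above Actb. No other neighbours overlapped in any group. The place of Actg1 rests on the few bases that tell it from its copies.

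Acta2, the smooth muscle actin, was spread around the same level in Sham-Veh (1809, 1541, 1577 and 2056) and TAC-Veh (1878, 1584, 1538 and 1643). The log2 difference was -0.07 (95% interval -0.44 to 0.31; limma adjusted p = 0.788). In TAC-THZ1 it was 1234, 1133, 2366 and 1210: 3 libraries lay under every other library of the study and replicate 3 above them all. With all libraries, the difference from Sham-THZ1 was -0.46 (limma adjusted p = 0.0695) and from TAC-Veh -0.23 (limma adjusted p = 0.36). Without TAC-THZ1 replicate 3 both passed, at -0.71 (limma adjusted p = 0.00183) and -0.47 (limma adjusted p = 0.00577), and so did the interaction, at -0.64 (limma adjusted p = 0.018). That single library therefore decided whether Acta2 was called.

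Markers of smooth muscle cells were mostly lower in TAC-THZ1 than in Sham-THZ1. Of 12 markers of vascular smooth muscle and pericytes, 9 were lower and 0 higher, with a median log2 difference of -0.48 where the median of all genes was 0.00 and 12.8% of genes were called lower. Among them were Myh11, the smooth muscle myosin heavy chain, at -1.14, and Abcc9, a potassium channel subunit, at -0.46. The summed level of the 12 was 40545 to 40917 in Sham-THZ1 and 28449 to 30216 in TAC-THZ1, with replicate 3, at 29214, inside the range of its group. Within that sum Abcc9 had means of 8320 in Sham-THZ1 and 6076 in TAC-THZ1. Under vehicle the sum ran from 39087 to 41504 after sham surgery and from 25380 to 35919 after constriction. Constricted hearts had a mean sum of 28510 with vehicle and 29377 with THZ1. Of the 12 markers 5 were lower and 1 higher in TAC-Veh against Sham-Veh, where 23.6% of all genes were called lower and 21.4% higher. The higher one was Tagln, an actin-binding protein of smooth muscle and myofibroblasts, at 0.80. Abcc9 was among the lower ones, at -1.25 (limma adjusted p = 3.16e-06). With THZ1 in constricted hearts 2 of the 12 were higher and 2 lower, beside 15.1% and 14.2% of all genes. Abcc9 was there called higher, at 0.56 (limma adjusted p = 0.00571), and Tagln lower, at -1.06 (limma adjusted p = 0.00567).

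Markers of activated fibroblasts had another course than Acta2. Of 8 fibroblast markers 6 were higher in TAC-Veh than in Sham-Veh, with Postn, a matricellular protein of myofibroblasts, up by 4.65, and 5 were lower in TAC-THZ1 than in TAC-Veh, with Postn at -3.15; 21.4% of all genes were called higher in the first comparison and 14.2% lower in the second. Their summed level was 8801 to 11419 in Sham-Veh, 34381 to 105952 in TAC-Veh and 7688 to 14134 in TAC-THZ1. Acta2 gave no difference in TAC-Veh beyond the spread between mice, although that group had the highest fibroblast markers. The part of cell composition in the Acta2 values was not tested.

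Actg2, the other smooth muscle actin, was the lowest of the 6, with 18 to 41 reads in a library. Mean counts were 26.1 ± 6.48 (Sham-Veh) and 27.3 ± 2.61 (Sham-THZ1) after sham surgery, and 32.9 ± 6.00 (TAC-Veh) and 29.0 ± 5.20 (TAC-THZ1) after constriction. The largest log2 difference was 0.34 for TAC-Veh against Sham-Veh (95% interval -0.08 to 0.76; limma adjusted p = 0.178).

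Actb had counts of 7009, 5877, 6535 and 6593 in Sham-Veh and 6766, 10301, 6891 and 7514 in TAC-Veh. The log2 difference of 0.26 did not pass (95% interval -0.07 to 0.58; limma adjusted p = 0.192), and the groups overlapped. In TAC-THZ1 Actb was 6330, 5352, 9525 and 6183, -0.21 from TAC-Veh (limma adjusted p = 0.317). Without TAC-THZ1 replicate 3 this became -0.38 and passed (limma adjusted p = 0.0366). Sham-THZ1, at 6871, 6479, 6132 and 5252, was -0.08 from Sham-Veh (limma adjusted p = 0.975). Actb is often taken as a reference gene, and here its coefficient of variation between mice of a group ranged from 7.19% for Sham-Veh to 26.8% for TAC-THZ1.

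Actg1 had a mean of 619 ± 23.1 in Sham-Veh, against 719 ± 79.8 with the drug, and of 732 ± 161 in TAC-Veh against 716 ± 205 with the drug. Its log2 differences lay between -0.05 and 0.22 in the 4 pairwise comparisons and none passed. The 2 highest libraries were the ones that were also highest for Actb, TAC-Veh replicate 2 at 959 and TAC-THZ1 replicate 3 at 1007. The same 2 libraries stood at 1247 and 669 normalized counts of Egr1, an immediate early gene, each the highest of its group, and the gene whose log2 level followed Actg1 most closely over the 16 libraries was Egr1 (r = 0.78).

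The genes whose log2 levels were most like Acta1 over the 16 libraries, among 10316 with a mean of at least 100, were Aqp8, a water channel (r = 0.99), Cox19, an assembly factor of cytochrome c oxidase (r = 0.99), Cnksr1, a scaffold protein (r = 0.98), Ankrd23, a titin-binding ankyrin repeat protein (r = 0.98), and Tnfrsf12a, a cytokine receptor (r = 0.98). These correlations are descriptions over libraries that share 4 group means, and once the group means were removed the coefficient was 0.82 for Aqp8 and 0.34 for Tnfrsf12a. Aqp8 rose by 2.63 with constriction and fell by 0.78 with THZ1 in constricted hearts (limma adjusted p = 3.75e-07 and 0.0145), a smaller span than that of Acta1. For Actc1 the nearest were Mrpl12 (r = 0.93), Fbxl22 (r = 0.90), Mrps27 (r = 0.88), Mrpl19 (r = 0.88) and Cox18 (r = 0.87), of which Mrpl12, Mrps27 and Mrpl19 encode proteins of the mitochondrial ribosome. For Acta2 the nearest were Eml1 (r = 0.86) and Tmed7 (r = 0.85), and among the nearest for Actb were Trp53 and Acsl5 (r = 0.87 each) and Cap1, an actin monomer-binding protein (r = 0.86). For Actg2 the nearest was Ttc7b (r = 0.81).

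Myh7, the slow myosin heavy chain that is also re-expressed in stressed ventricle, had the same direction as Acta1 between groups and another order of libraries within them. Myh7 was 75096, 49604, 16757 and 44752 in TAC-Veh, so that replicate 3, with the most Acta1 (115230), had the least Myh7. In TAC-THZ1 it was 31818, 8845, 49784 and 14202, and replicate 4, with the most Acta1 (59180), had the second lowest Myh7. Its log2 fold change was 4.25 ± 0.47 for constriction (limma adjusted p = 3.98e-06) and -0.95 ± 0.47 for THZ1 in constricted hearts (limma adjusted p = 0.135). Myh6, the fast adult heavy chain, fell by 1.20 ± 0.19 with constriction (limma adjusted p = 0.000101).

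SRF and the genes listed as its cofactors did not share a direction, and the list was not split into activators and repressors. In TAC-Veh against Sham-Veh 4 of 13 tested were higher and 3 lower, with a median of 0.06 beside 0.00 for all genes, of which 21.4% were called higher and 23.6% lower. Srf itself was 1790 ± 185 and 1941 ± 235 (0.11; limma adjusted p = 0.313), and the myocardin-related factors Mkl1 and Mkl2 differed by -0.14 and 0.06 without passing. Abra, which binds actin and brings these factors into the nucleus, rose by 2.13 from 838 ± 97.7 to 3827 ± 1432 (limma adjusted p = 9.24e-07), and Fhl1, a LIM protein of the sarcomere, rose by 1.91. Csrp3, the muscle LIM protein, rose by 0.60, and Myocd, myocardin, fell by 0.54. In constricted hearts THZ1 lowered Abra by 1.07 (limma adjusted p = 0.00114) and Fhl1 by 1.22 (limma adjusted p = 0.000289), while Csrp3 stayed at -0.07 (limma adjusted p = 0.686). There 4 genes of the list were lower and 2 higher, beside 14.2% and 15.1% of all genes.

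Of the partners of actin in the thin filament 5 of 17 tested were higher with constriction and 6 lower, with a median of -0.19, beside 21.4% and 23.6% of all genes. Tmod4, a capping protein of the filament end, fell by 0.84 (limma adjusted p = 0.00011), Tnnt1, the slow troponin T, by 0.82, and Nebl, the cardiac nebulin relative, by 0.79 (limma adjusted p = 1.41e-06). Neb, nebulin, was higher by 0.86 (limma adjusted p = 0.0299), a call that was lost without Sham-Veh replicate 1, 2 or 3 or TAC-Veh replicate 2 or 4 (0.67 to 0.85). THZ1 in constricted hearts raised Tmod4 by 0.76 and Tnnt1 by 0.65 (limma adjusted p = 0.000789 and 0.00179). Of the 4 tropomyosins, named after their values were seen, Tpm3 and Tpm4 were higher by 0.55 and 0.71 with constriction and fell by 0.49 and 0.73 with THZ1. Tpm1 (-0.19 and 0.16) and Tpm2 (0.20 and -0.03) passed in neither comparison. Tmod3, a tropomodulin, was likewise higher by 0.43 and then fell by 0.51.

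Genes that bind actin monomers and turn filaments over were mostly higher after constriction. Of 24 tested 15 were higher and 1 lower, with a median of 0.34, beside 21.4% and 23.6% of all genes. Capg, a filament-capping protein, rose by 1.64 from 265 ± 31.2 to 854 ± 250 (limma adjusted p = 3.92e-06), Tmsb10, a monomer-binding thymosin, rose by 0.88, and Tmsb4x, the main thymosin, by 0.75. Coro1a, a coronin of leukocytes, was higher by 0.74, a call lost without TAC-Veh replicate 2 (0.61; limma adjusted p = 0.0504). In that comparison 2 of 5 leukocyte markers tested were higher, and their part was not tested. THZ1 in constricted hearts lowered 6 of the 24 and raised 1, where 14.2% of all genes were lower and 15.1% higher, with Capg at -0.92 (limma adjusted p = 0.00162) and Tmsb10 at -0.59.

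Of the genes for filament nucleation and elongation 11 of 28 tested were higher with constriction and 5 lower, beside 21.4% and 23.6% of all genes, so that the share lower was under that of all genes. Enah, an elongation factor of cell contacts, rose by 1.17, from 1916 ± 123 to 4432 ± 1220 (limma adjusted p = 7.82e-06), and Diap3, a formin, by 1.32 at a low level of 15.7 ± 6.56 to 39.5 ± 14.9. Arpc1b, a subunit of the Arp2/3 complex, rose by 0.95, and Fhod3, the formin of the heart sarcomere, fell by 0.78 (limma adjusted p = 2.71e-05). With THZ1 in constricted hearts 9 were lower and 1 higher, beside 14.2% and 15.1% of all genes. Enah fell by 0.93 (limma adjusted p = 0.00025), and the gene that rose was Fhod3, by 0.48 (limma adjusted p = 0.00319).

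The cross-linking and anchoring genes were the list with the largest share lower under THZ1 in constricted hearts, 15 of 23 with 1 higher. Their median was -0.30 beside 0.02 for all genes, of which 14.2% were called lower. With those 2 groups alone in the fit the 15 became 6, and the genes lower among the monomer-binding and nucleation genes became 2 and 5. The number of all genes called lower fell too in that fit, from 1899 to 816 of 13331. In the same comparison 3 of 5 endothelial markers were lower (Pecam1 -0.40, Cdh5 -0.41 and Tek -0.22), with a summed level of 31128 to 48927 in TAC-Veh and 25065 to 32071 in TAC-THZ1, and 5 of 8 fibroblast markers were lower; the part of these cells was not tested. With constriction 8 of the 23 were higher and 3 lower, beside 21.4% and 23.6% of all genes. Synpo2l, a Z-disc protein of the heart, rose by 1.89 from 3273 ± 199 to 12309 ± 2535 and fell by 1.38 with THZ1 to 4746 ± 1146 (limma adjusted p = 2.82e-07 and 4.25e-05). Actn1, the non-muscle alpha actinin, rose by 0.80 and fell by 0.94, Msn, moesin, rose by 0.72 and fell by 0.85, and Pls3, plastin, rose by 0.68 and fell by 0.71.

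Of 17 folding factors of actin tested, which include subunits of the CCT chaperonin and of prefoldin, 7 were higher with constriction, 0 were lower and 10 did not pass, with a median of 0.15, beside 21.4% of all genes called higher; without TAC-Veh replicate 1 or 3 the 7 became 4. Pfdn1, a prefoldin subunit, rose by 0.55 (limma adjusted p = 0.00129), Cct8 by 0.34 and Cct3 by 0.27. Pdcl3, a phosducin-like protein that works with CCT, was higher by 0.33, a call lost without Sham-Veh replicate 4, TAC-Veh replicate 1 or TAC-Veh replicate 3. THZ1 in constricted hearts lowered 2, Cct8 and Cct3, beside 14.2% of all genes called lower. It raised 1, Pfdn6, named after its values were seen, beside 15.1% of all genes called higher.

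**Figure D4:**
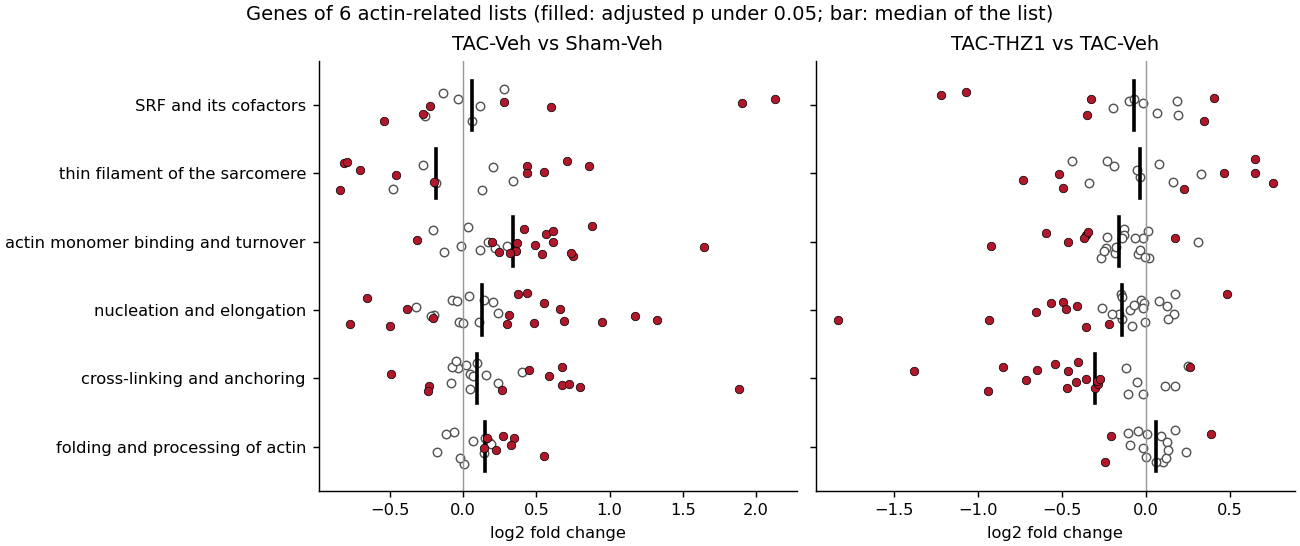
log2 fold change (x axis) of each tested gene in 6 lists of genes that act on actin (y axis), for TAC-Veh against Sham-Veh on the left and TAC-THZ1 against TAC-Veh on the right; filled points have an adjusted p under 0.05, bars are list medians and the vertical scatter within a list has no meaning. Monomer-binding genes lie mostly to the right with constriction (median 0.34), and cross-linking genes mostly to the left with THZ1 (median -0.30).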

How the data were processed

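Ventricle RNA of 16 mice was sequenced from stranded poly(A) libraries as 40-base single reads. The authors aligned them to mm9 with TopHat 2.1.1, assigned them to GENCODE genes by htseq-count (reverse-stranded) and divided the counts by DESeq2 size factors from all mouse libraries; other versions are not given in the sources used here. The deposited signal is this normalized count per gene. Dividing each library by its smallest step gave whole reads for 100% of values (tolerance 0.01), used for shares, edgeR 4.0.16 and DESeq2 1.42.0.

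The main test was limma 3.58.1 (R 4.3.3) on log2(normalized count + 1) over all 16 libraries, with a trended prior, for the 13331 genes that reached 10 normalized counts in 4 or more libraries. Fold changes are on that scale, and genes with a Benjamini-Hochberg adjusted p under 0.05 over all genes were called. On simulated counts limma, edgeR and DESeq2 were tested before use. Ratios and sums used normalized counts per kb of exon and exact two-sided permutation tests (SciPy 1.17.1) with 4 pairs of groups.

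Text names the 6 genes, the genes most like them (5 for Acta1, Actc1, Acta2 and Actb, 3 for the others), and up to 4 genes of each list with the largest change with constriction. Srf, Myocd, Mkl1, Mkl2, Abra, Myh6 and Myh7 were added. A gene that this rule names is not reported here. Members and lists were chosen with earlier results of these data known. Tnnc1 and Nrap, with 2 gene identifiers each, are listed at 0 and were not tested. Alternatives were pseudocounts, filters, scalings, other fits and leaving out each library. Replicates are separate mice; no batch is given.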

Additional observations from a re-analysis of the deposited data

Results flagged for a closer look

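In 32 sets of 4 libraries (each gene, the Acta1 to Actc1 ratio and the sum of both, by group) 2 held a library far from the other 3; chance flags about 1 in 20 such sets. Acta2 in TAC-THZ1 replicate 3 was 2366, against 1133, 1210 and 1234 in its group. The same library held the highest Actc1, Actb and Actg1 of the group and had a mitochondrial share of 36.7%, where the others had 41.8% to 44.7%; the part of these in the Acta2 value was not tested. Acta2 in Sham-THZ1 replicate 1 was 2358, against 1803, 1812 and 1866.

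The effect of THZ1 differed between constricted and sham hearts for Acta1 by -1.34 on the log2 scale (limma adjusted p = 0.0195), with values from -1.56 to -1.16 over the alternatives tried. It also differed for the Acta1 to Actc1 ratio, by -1.68 (exact permutation p = 0.00857), where every TAC-THZ1 library lay under every TAC-Veh library and the sham groups overlapped.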

How the results depend on the processing

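The calls of Acta1 held in every alternative of its 3 called comparisons and of the interaction (highest adjusted p 0.0275 for THZ1 in constricted hearts and 0.0462 for the interaction). With single libraries left out the number of actins called was 1 with constriction, 1 to 3 for THZ1 in constricted hearts, 1 to 2 for constriction under THZ1, 1 to 2 for the interaction and 0 in sham hearts; the higher counts came without TAC-THZ1 replicate 3, which added Acta2 and, for THZ1 in constricted hearts, Actb. For constriction under THZ1 array weights gave 3 (Actc1 and Acta2 added) and DESeq2 2 (Actc1 added); the cause was not tested. Signs of uncalled members turned: Actc1 with constriction was 0.002 with upper quartile scaling and -0.094 to 0.064 with single libraries left out, and Actg1 for constriction under THZ1 was 0.003 with edgeR and -0.22 to 0.093. The same ranges were -0.13 to 0.015 for Acta2 with constriction, -0.23 to 0.09 for Actg1 with THZ1 in constricted hearts, -0.014 to 0.21 for Actg2 with THZ1 in sham hearts, -0.014 to 0.18 for Actg2 and -0.051 to 0.23 for Actb with constriction under THZ1.

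With single libraries left out the log2 ratio of Acta1 to Actc1 differed by 4.26 to 4.62 with constriction, -1.71 to -1.31 for THZ1 in constricted hearts, 2.48 to 2.88 for constriction under THZ1 and 0.07 to 0.37 in sham hearts, and the exact permutation test of 3 against 4 cannot go below p = 0.0571. The interaction was -1.91 to -1.51 and passed each time. The log2 sum differed by 0.41 to 0.56, -0.13 to 0.074, 0.41 to 0.61 and -0.07 to -0.01 for the same 4 pairs, so that its sign between TAC-THZ1 and TAC-Veh turned. The replicate numbers did not pair the mice (2 of 24 pairs of libraries correlated above 0.1, range -0.43 to 0.16; 5 of 16 libraries were most like one of their own number). The replicate block changed no count of actins called; for the ratio, sign flips over 4 pairs gave 4.395, -1.47 and 2.72 with adjusted p = 0.167, where 0.125 is the smallest p possible.

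Counts over all genes moved with the fit: 9 genes in sham hearts became 465 with those groups alone, 513 with array weights, 33 with DESeq2, 3 without Sham-Veh replicate 2 and 15 without TAC-Veh replicate 1. The 3918 for THZ1 in constricted hearts became 1399 with those groups alone and 2412 with array weights. The 3220 for constriction under THZ1 became 5011 with array weights, 2065 without Sham-THZ1 replicate 4 and 1977 without TAC-THZ1 replicate 1, and the 1336 for the interaction became 690 to 2475 with single libraries left out. Counts of 1 or 2 genes called higher in a list with THZ1 in constricted hearts moved between 0 and 5. Depth limits Actg2, and read length limits Actg1. Counting length by windows found in no other transcript moved the share of Actb from 1.79% to 2.75% in Sham-Veh, above the 1.97% of Acta1.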
